A study of Mus musculus with 10 samples.

Results

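Retinal ganglion cells (RGCs) with high Hrk were compared with RGCs in which Hrk was not detected, all from mouse retinas 2 weeks after optic nerve crush (ONC, an injury that severs the axons of RGCs). A cell was kept if it held at least 8000 unique molecular identifiers (UMIs, tags that each mark 1 captured RNA molecule) and at least 1 UMI of Atf3, a transcription factor induced by axon injury. It was called Hrk-high from 3 Hrk UMIs per 10000 UMIs of the cell, and Hrk-negative at 0 Hrk UMIs. Of 3292 deposited cells, 1138 came from the 3 injured libraries used here. The limits on depth and Atf3 were met by 918 of these, of which 382 were Hrk-high, 84 were Hrk-negative and 452 lay between (Hrk-intermediate). The cells were thus chosen by their counts of Hrk, of Atf3 and of all UMIs, and these measures are described without a test.

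The study profiled RGCs of wild-type 129S1/SvImJ mice of both sexes, aged 12 weeks, with 6 libraries of uninjured cells and 4 libraries made 2 weeks after ONC. RGCs were enriched by immunopanning on Thy1, a surface protein of these neurons, and cells of 10 retinas were pooled for each batch, so that single animals cannot be told apart. The paper asked which subunits of the V-ATPase, the proton pump of acidic organelles, change in injured RGCs. The labels and the paper differ on the capture kit, the sequencer and the removal of amacrine cells beside macrophages.

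Injured 1, 2 and 3 held 338, 273 and 527 cells, with 5934728, 4698799 and 8860536 UMIs in all. Hrk-high cells numbered 114, 85 and 183 in these libraries, and Hrk-negative cells 26, 30 and 28. Injured 3 and injured 4 shared 421 cell barcodes, so injured 4, with 471 cells, was left out as a repeat of that capture. No barcode was shared among injured 1, 2 and 3. Of the cells that were Hrk-high in injured 3 and were found again in injured 4, 96 were Hrk-high there, 19 were intermediate, 0 were negative and 26 fell outside the limits on depth or Atf3. Of the cells that were Hrk-negative in injured 3, 11 were negative again, 12 were intermediate, 0 were high and 3 fell outside.

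Injured 3 stood apart from injured 1 and 2 in the transcripts mCherry and Xist. mCherry is the reporter of viral vectors used elsewhere in the study, and the labels of these libraries name no vector. It had a UMI in 8.77%, 17.6% and 91.8% of Hrk-high cells and in 7.69%, 13.3% and 82.1% of Hrk-negative cells of injured 1, 2 and 3. Xist, the RNA that coats the inactive X chromosome of females, stood at 952, 706 and 0.731 UMIs per 1000000 UMIs of the summed cells (CPM) in Hrk-high cells and at 273, 688 and 0 in Hrk-negative cells. It had a UMI in 80 of 114, 48 of 85 and 2 of 183 Hrk-high cells and in 9 of 26, 27 of 30 and 0 of 28 Hrk-negative cells. Injured 3 thus held almost no Xist, and the groups differed in it within injured 1 and, in the opposite direction by share of cells, within injured 2. The uninjured libraries, whose ranges are given below as a reference, held at most 0.173 CPM of Xist, as low as injured 3. Its log2 fold change was 0.86 with all libraries, 0.01 and not called without injured 1, 1.81 without injured 2, and 0.19 and not called with cells of 8000 to 20000 UMIs.

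The label of the cells was checked against markers of all RGCs. A UMI of Rbpms, Slc17a6, Sncg and Tubb3 was found in 100% of both Hrk-high and Hrk-negative cells. The authors selected cells on pan-RGC markers, so this share is what the selection left. With each cell thinned to 8000 UMIs, Rbpms was found in 92.1% of Hrk-high and 89.3% of Hrk-negative cells, and Slc17a6, the vesicular glutamate transporter, in 92.7% and 95.2%. Hrk itself is no marker of a cell type, and the groups are named only by their Hrk counts.

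The groups differed in depth and in measures of cell quality, with the same direction in each of the 3 libraries. Median UMIs per cell were 13578, 14008 and 14009 in Hrk-high cells and 22801, 19404 and 18350 in Hrk-negative cells. Hrk-negative cells were thus the deeper ones by the median. Mitochondrial genes took a median of 2.02% of UMIs in Hrk-high and 3.81% in Hrk-negative cells, the nuclear RNA Malat1 took 9.42% and 3.44%, and ribosomal protein genes took 5.99% and 5.63%. UMIs of at least 3 markers of another retinal class were present in 21.2% and 50.0% of the cells, and no doublet caller was run. Depth was used to choose the cells and is given without a test. For the other measures an exact two-sided sign-flip permutation test over 3 libraries gave p 0.25. That is the lowest value it can give, so it decides nothing. The part of depth and of these measures in the results was not tested. The main counts are also given for cells of 8000 to 20000 UMIs and without cells that hold markers of another class.

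Hrk (harakiri) encodes a BH3-only protein, one of the proteins that start the mitochondrial route of apoptosis by binding and blocking the anti-apoptotic members of the Bcl2 family. Once these are blocked, Bax and Bak1 open the outer mitochondrial membrane, cytochrome c is released and the caspases are activated. Neurons that lose trophic supply or are cut off from their targets are known to switch on BH3-only genes through JNK kinases and the transcription factors they feed, and most RGCs die in the weeks after ONC.

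Hrk lies on chromosome 5 from 118302713 to 118327543 on the forward strand of the mm39 genome. In uninjured libraries it was close to absent, at 0 to 1.41 CPM over all cells and with a UMI in 0 to 4.08% of cells. In all injured cells it stood at 224, 225 and 287 CPM in injured 1, 2 and 3, and 87.0%, 83.5% and 89.9% of the cells held a UMI of it. Within the chosen cells its level was 466, 519 and 570 CPM in Hrk-high and 130, 129 and 139 in Hrk-intermediate cells, and 0 by definition in Hrk-negative cells. The 5 Hrk-high cells nearest to the threshold had 3.00 to 3.04 Hrk UMIs per 10000, and the 5 cells just under it had 2.93 to 2.99. The 5 cells just inside the limit on depth held 8006 to 8111 UMIs and the 5 just under it 7917 to 7994. Only 1 Hrk UMI was present in 105 of the 452 intermediate cells, and only 1 Atf3 UMI in 45 of the 466 Hrk-high and Hrk-negative cells. Atf3, which the choice of cells also used, stood at 621, 591 and 672 CPM in Hrk-high and at 1012, 919 and 848 in Hrk-negative cells. The rule would have called 0 cells Hrk-high in the 6 uninjured libraries, where 24 cells met the limits with 0 Hrk UMIs and 3 were intermediate.

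**Figure D1:**
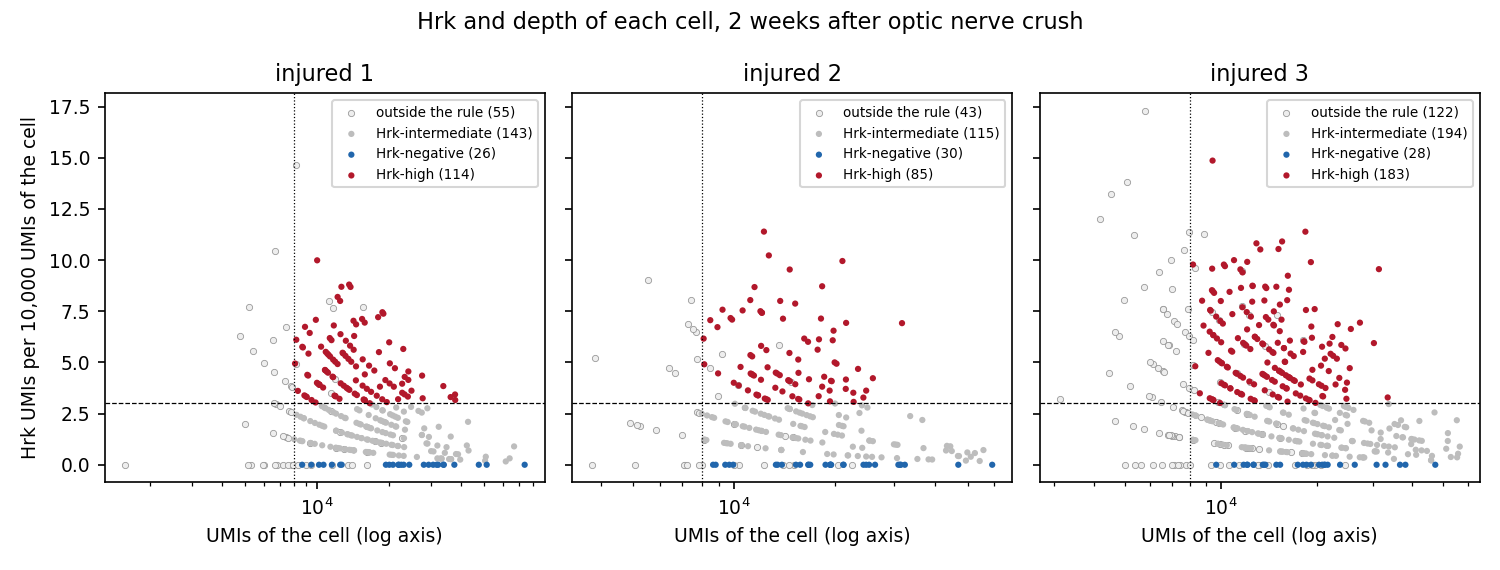
Hrk UMIs per 10000 UMIs of the cell (vertical axis) against the UMIs of the cell (horizontal log axis), 1 point per cell, for injured 1, 2 and 3. The dashed line marks 3 per 10000 and the dotted line 8000 UMIs; the 84 Hrk-negative cells lie on the zero line and reach further to the right than most of the 382 Hrk-high cells.

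The UMIs of all cells of a group were added up within each library, and the 3 pairs of sums were tested with edgeR with the library as a block. Of 9451 genes tested, 910 were higher in Hrk-high cells (9.63%) and 1382 were lower (14.6%) at an adjusted p under 0.05. Of the 910, 881 were higher in all 3 libraries, and the sums of both groups did not overlap for 796. Of the 1382, 1329 were lower in all 3 libraries and 1153 did not overlap. A log2 fold change of 1 or more was reached by 335 of the higher genes, and one of -1 or less by 653 of the lower genes, while -2 or less was reached by 219 and 2 or more by 45. The median log2 fold change was 0.83 among higher genes, -0.96 among lower genes and -0.00 over all genes tested. These p-values measure the spread between 3 libraries that may share animals and technical steps, and for 8058 of the 9451 genes that spread is the trend shared by genes of a like level, while 1393 have a spread that draws on their own values. A gene absent from 1 group could pass the filter on low counts only where the other group was high enough.

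Fewer genes were called in several other settings. Cells of 8000 to 20000 UMIs alone (the depth window) leave 321 Hrk-high and 42 Hrk-negative cells. There, of 8070 genes tested, 97 were higher and 260 lower. Of these, 89 and 239 were among the genes called with all cells. Without cells that hold markers of another class, 332 of 7750 genes tested were higher and 573 lower (301 and 42 cells). Without cells that hold an mCherry UMI the counts were 310 and 452 of 7806 (189 and 55 cells, of which 15 and 5 are from injured 3). Without cells that hold a Xist UMI they were 196 and 342 (252 and 48 cells, with 3 Hrk-negative cells in injured 2). Without injured 1 they were 475 and 877, and DESeq2 gave 321 and 698. The settings on depth window, mCherry and Xist were chosen after the data had been seen. The shares of all genes, 9.63% higher and 14.6% lower, are the background for each list below with all cells. For a list count in another setting, the background is the count over all genes in that setting. Of the 199 called genes that the naming rule selects, 114 kept their direction but not their call in the depth window. Its values are given below for genes whose call it ended or whose fold it changed by more than 1.5 times.

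**Figure D2:**
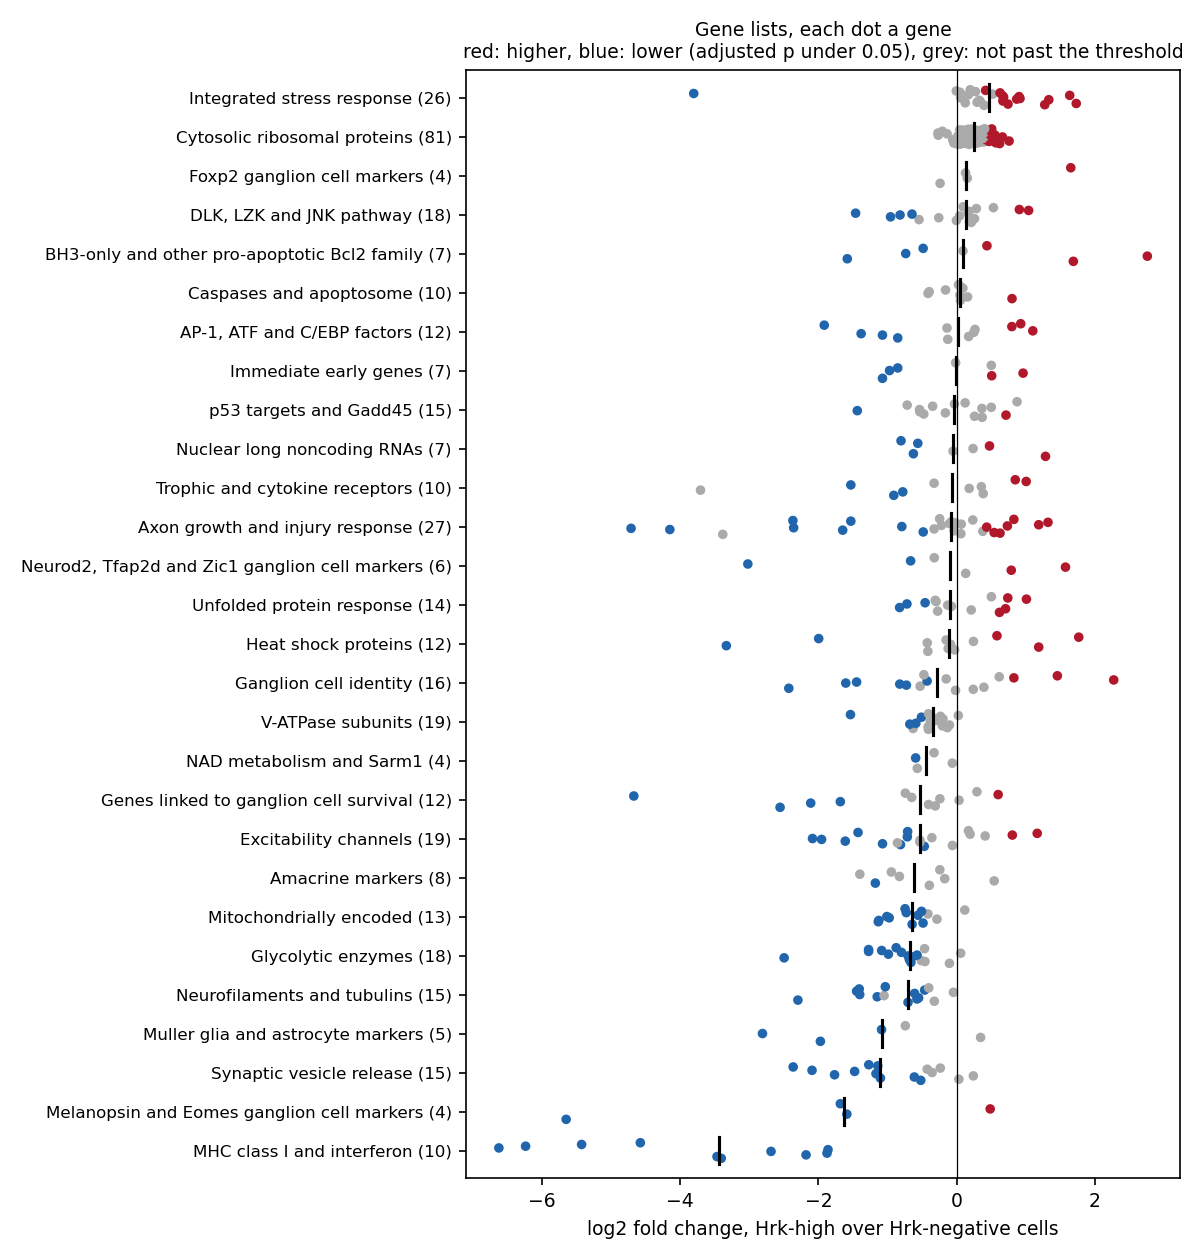
Log2 fold change of Hrk-high over Hrk-negative cells (horizontal axis) for each tested gene of 28 gene lists, 1 dot per gene, with the number tested in brackets and the list median as a black bar. The interferon list lies furthest to the left with a median of -3.44, and the integrated stress response list has the highest median at 0.47.

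Among the lists, genes of the interferon response and of class I antigen presentation had the lowest median. All 10 tested members of the list of MHC class I and interferon genes were lower in Hrk-high cells, with a median log2 fold change of -3.44 against -0.00 over all genes, where 14.6% of genes were lower. These genes are switched on by interferon through factors such as Stat2 and Irf9 and include antiviral effectors and the parts of the class I complex. Ifit1, which binds foreign RNA, stood at 10.9, 1.55 and 0.731 CPM in Hrk-high cells of injured 1, 2 and 3 and at 478, 724 and 173 in Hrk-negative cells. B2m, the light chain of the class I complex, stood at 40.9, 40.4 and 95.7 against 613, 598 and 583, and its heavy chain H2-K1 at 56.4, 31.1 and 95.4 against 641, 624 and 673. For each of these genes every Hrk-negative sum lay above every Hrk-high sum, and uninjured libraries had at most 1.07, 9.07 and 8.77 CPM. The log2 fold changes were -6.62 (SE 0.25, adjusted p 2.4e-105) for Ifit1, -3.41 (SE 0.18, adjusted p 5.7e-69) for B2m and -3.47 (SE 0.18, adjusted p 4.0e-72) for H2-K1, or 10.6-fold and 11.1-fold lower for the parts of the class I complex. Ifit1 moved most when a library was left out, to -8.33 without injured 1 and -5.95 without injured 2, and it was no longer called with Hrk-high cells taken from 2 per 10000 or with cells of at least 12000 UMIs, with the same direction. Ifit1, B2m and H2-K1 were called at -4.87, -2.01 and -2.14 in the depth window.

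Factors that carry the interferon signal moved less than the median of the list. Stat2 stood at 11.5, 16.3 and 9.13 CPM in Hrk-high and 91.2, 65.5 and 72.2 in Hrk-negative cells (log2 fold change -2.68). Stat2 was present in uninjured RGCs, at a median of 21.3 CPM, which is above its level in Hrk-high cells. Irf9, which binds Stat2, fell by 1.86 on the log2 scale. H2-D1, a second class I heavy chain, stood at 102, 113 and 154 against 579, 639.8 and 444 (-2.18; -0.82 and not called with cells of 8000 to 20000 UMIs), with an uninjured median of 95.7. H2-K1 and H2-D1, and the genes of the Ifit family among themselves, are close in sequence, so how reads shared by such copies were assigned is uncertain. Stat2 was called at -1.78 in the depth window, and Irf9 was too sparse for a test there.

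Several interferon-induced genes were nearly absent from Hrk-high cells. Rsad2, an antiviral enzyme also called viperin, had 3 UMIs in all Hrk-high cells against 294 in Hrk-negative cells, a ratio of levels of 299 (95% exact interval 101 to 1458). Ifit3 had 3 UMIs against 104 (ratio 106, 35.2 to 521). Bst2, which tethers viruses to the membrane, stood at 3.45, 0.777 and 1.10 against 89.7, 144 and 38.8 CPM, Tap1, which pumps peptides for class I loading, at 2.88, 0.777 and 0.365 against 48.5, 40.6 and 14.1, and Eif2ak2, a kinase activated by double-stranded RNA, at 3.45, 0.777 and 3.29 against 36.8, 43.7 and 37.0. Their log2 fold changes were -5.43, -4.58 and -3.80, with ranges of -6.07 to -4.79, -5.28 to -4.26 and -4.07 to -3.40 when a library was left out. Isg15, a ubiquitin-like modifier, had too few UMIs in some sums to be tested, with 2 in Hrk-high and 173 in Hrk-negative cells. The untested members Irf1 and Ifitm3 had 5 against 17 and 0 against 0. The median of the list is the same with Ifit3 at the low end of its interval. With cells of 8000 to 20000 UMIs, 5 of 6 tested members were still lower, with a median of -1.90, against 260 of 8070 genes. Without cells that hold markers of another class 8 of 8 were lower, with a median of -3.08, against 573 of 7750 genes. Rsad2, at -7.98 on the log2 scale with all cells, was called at -7.07 in the depth window, and Ifit3, Bst2, Tap1 and Eif2ak2 were too sparse for a test there.

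Shares of cells showed how the interferon-induced transcripts were spread. After thinning to 8000 UMIs, Ifit1 was found in 1.31% of Hrk-high, 11.5% of intermediate and 38.1% of Hrk-negative cells, and without thinning in 1.57%, 15.3% and 42.9%. B2m was found in 23.6%, 43.8% and 61.9% of thinned cells and in 29.6%, 56.0% and 66.7% of whole cells. In each group a minority of cells held most UMIs of the list: 75.1% lay in the top 21 of 84 Hrk-negative cells, 73.0% in the top 96 of 382 Hrk-high and 83.1% in the top 113 of 452 intermediate cells. The median rate of Hrk-negative cells over the list was 10.8 UMIs per 10000, with quartiles of 2.03 and 31.8, against a median of 1.51 in Hrk-high cells. A UMI of Ifit1 was present in 36 of the 84 Hrk-negative cells, and these were deeper, with a median of 24610 UMIs against 15558.5 in those without it.

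**Figure D3:**
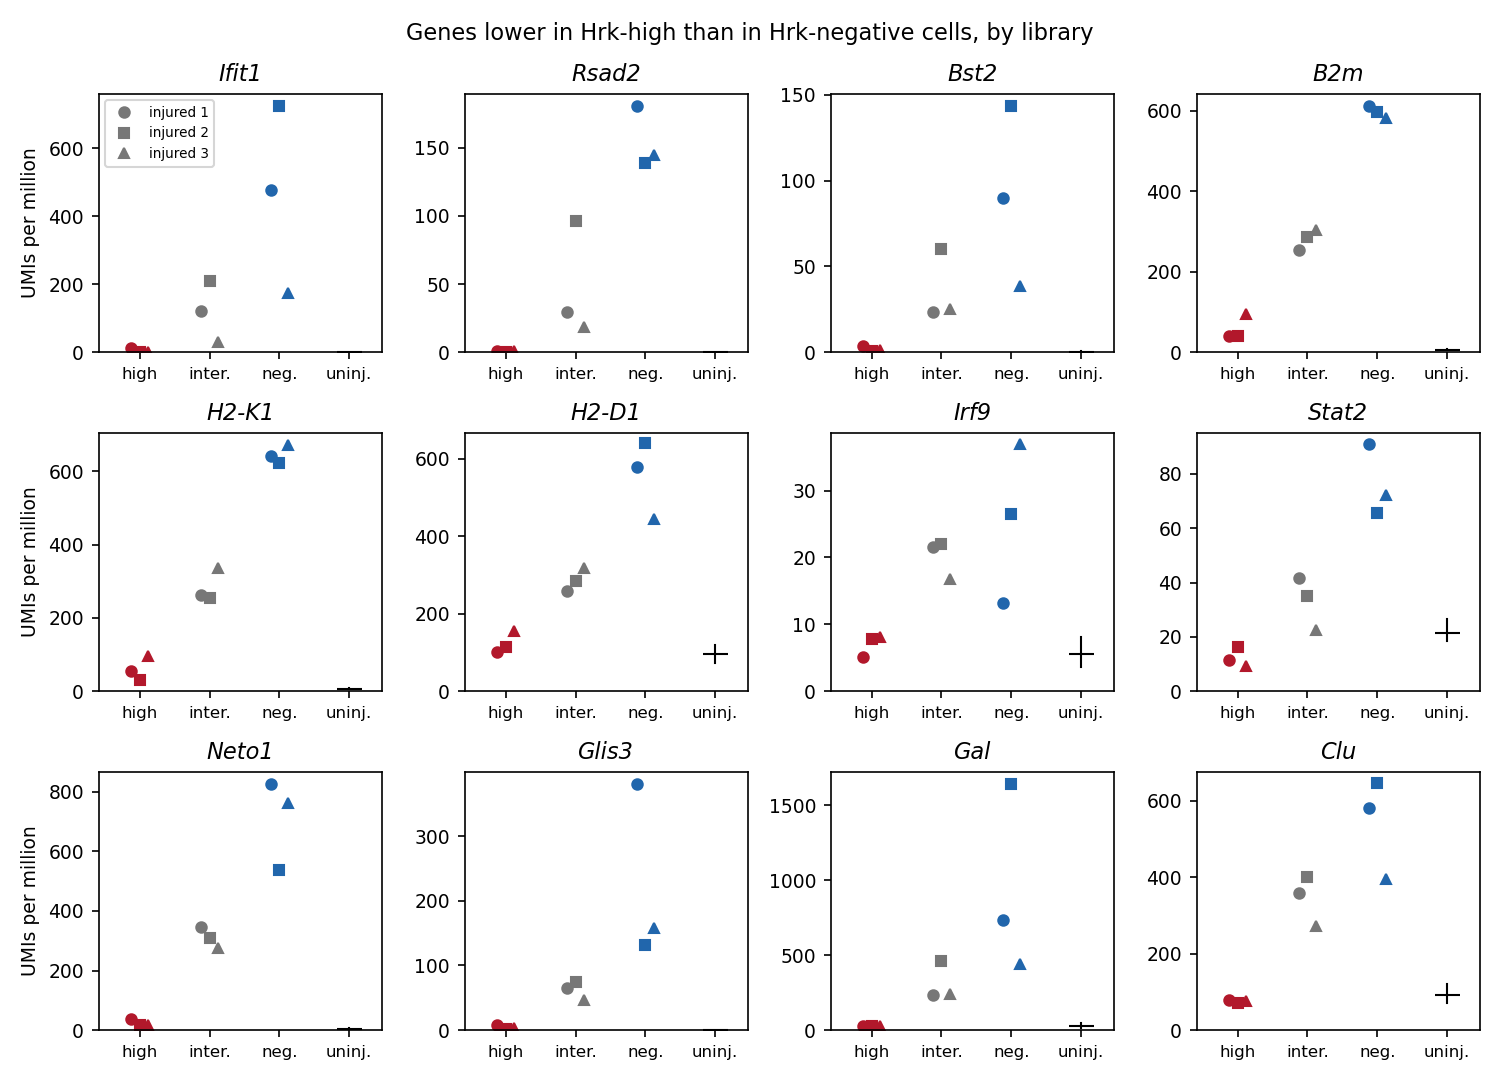
CPM (vertical axes) of 12 genes that were lower in Hrk-high cells, in Hrk-high, Hrk-intermediate and Hrk-negative cells of injured 1, 2 and 3, with the median and range of the 6 uninjured libraries as a bar and a line. For B2m the Hrk-negative sums lie at 583 to 613 and the Hrk-high sums at 40.4 to 95.7.

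Promoters are shown for Hrk, the gene that defines the groups, and for 4 interferon-induced genes that moved together, from 250 bases before to 50 bases after the start site. The sequences are from RefSeq on GRCm38.p6, an earlier build than that of the counts. Capitals mark matches to GAAANNGAAA or, on the other strand, TTTCNNTTTC, the core shared by interferon response elements. Hrk is at chr5:118169514-118169813 (forward strand), Ifit1 at chr19:34640639-34640938 (forward), Rsad2 at chr12:26456403-26456702 (reverse), Bst2 at chr8:71537423-71537722 (reverse) and B2m at chr2:122147437-122147736 (forward).
Hrk: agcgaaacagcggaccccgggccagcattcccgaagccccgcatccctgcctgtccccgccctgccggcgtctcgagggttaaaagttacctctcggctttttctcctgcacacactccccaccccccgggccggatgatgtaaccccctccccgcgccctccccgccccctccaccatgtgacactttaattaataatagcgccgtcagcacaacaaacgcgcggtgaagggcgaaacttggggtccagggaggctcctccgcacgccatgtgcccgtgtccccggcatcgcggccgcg
Ifit1: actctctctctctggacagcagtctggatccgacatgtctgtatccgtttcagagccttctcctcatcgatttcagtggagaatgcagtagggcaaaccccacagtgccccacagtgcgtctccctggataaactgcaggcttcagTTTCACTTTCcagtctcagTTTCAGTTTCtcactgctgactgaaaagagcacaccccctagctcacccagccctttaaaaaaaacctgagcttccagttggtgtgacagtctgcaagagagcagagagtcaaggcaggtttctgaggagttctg
Rsad2: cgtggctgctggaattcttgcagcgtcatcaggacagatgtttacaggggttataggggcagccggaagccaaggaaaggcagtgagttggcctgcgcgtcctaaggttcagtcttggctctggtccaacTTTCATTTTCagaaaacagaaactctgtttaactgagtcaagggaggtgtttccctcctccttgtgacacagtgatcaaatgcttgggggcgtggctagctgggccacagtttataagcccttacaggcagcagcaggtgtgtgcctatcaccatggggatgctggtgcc
Bst2: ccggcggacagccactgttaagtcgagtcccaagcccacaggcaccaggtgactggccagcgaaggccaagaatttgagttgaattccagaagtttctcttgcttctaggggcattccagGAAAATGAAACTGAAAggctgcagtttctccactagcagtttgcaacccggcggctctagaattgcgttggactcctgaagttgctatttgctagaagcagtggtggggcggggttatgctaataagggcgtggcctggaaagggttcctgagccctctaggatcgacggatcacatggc
B2m: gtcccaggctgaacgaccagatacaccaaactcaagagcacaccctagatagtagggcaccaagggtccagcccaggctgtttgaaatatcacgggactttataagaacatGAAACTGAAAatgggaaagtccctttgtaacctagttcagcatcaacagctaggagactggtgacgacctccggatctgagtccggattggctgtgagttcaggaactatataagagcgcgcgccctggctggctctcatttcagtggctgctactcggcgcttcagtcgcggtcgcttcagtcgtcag
Counted from the start site to the first base of a match, Ifit1 has matches at -104 and -85, Rsad2 at -120, B2m at -139, and Bst2 a pair that overlaps, at -130 and -124. The window of Hrk holds 0 matches, which says only that these letters are not in it. A match was found in 1131 of the 32851 windows of the table (3.44%), in 264 of the 7488 tested genes with a window (3.53%) and in 7 of the 12 members of the interferon list with a window. The members H2-K1, H2-D1, Irf1, Irf9 and Tap1 had no match, and Rsad2 is not on that list. A match is a description of the sequence and was not tied to binding.

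Genes that encode Bcl2 family proteins moved in both directions. Of 7 tested pro-apoptotic members, 3 were higher and 3 lower, against backgrounds of 9.63% and 14.6%, with a list median of 0.09. Bcl2l11, which encodes the BH3-only protein Bim, stood at 180.2, 204 and 219 CPM in Hrk-high and 20.6, 31.2 and 37.0 in Hrk-negative cells, against 1.93 to 5.32 in uninjured libraries. Bbc3, which encodes the BH3-only protein Puma, stood at 77.7, 71.5 and 139 against 16.2, 14.0 and 65.2, with injured 3 high in both groups. Pmaip1, which encodes the BH3-only protein Noxa, went the other way, at 9.78, 9.33 and 23.4 against 36.8, 49.9 and 40.5, and had 0 UMIs in uninjured libraries. None of these 3 genes overlapped between the groups. The log2 fold changes were 2.76 (SE 0.22, adjusted p 3.8e-35) for Bcl2l11, 1.69 (SE 0.23, adjusted p 8.3e-12) for Bbc3 and -1.58 (SE 0.29, adjusted p 6.3e-07) for Pmaip1. Without injured 3, Bbc3 moved to 2.29 and Pmaip1 to -2.15.

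With cells of 8000 to 20000 UMIs, Bcl2l11 and Bbc3 were called at 1.87 and 1.35, and Pmaip1 was at -0.48 and not called. Without injured 3 Bbc3 was at 2.29. After thinning, Bcl2l11 was found in 73.8% of Hrk-high and 17.9% of Hrk-negative cells (whole cells: 87.2% and 35.7%), and Bbc3 in 55.2% and 20.2% (70.4% and 42.9%). The smaller changes of this list were called only with all 3 libraries. Bnip3l, a receptor for the removal of mitochondria, was at 0.44 and lost its call without injured 1, 2 or 3 (0.50, 0.39 and 0.48). Its relative Bnip3, at -0.48, lost it likewise (-0.49, -0.40 and -0.53), as did Bad, at -0.73 (-0.79, -0.78 and -0.59). Bax, the pore-forming effector, was not called, at 0.09 (adjusted p 0.78). The untested members Bmf, Bid, Bak1 and Bok had 5, 14, 34 and 27 UMIs in Hrk-high cells against 1, 7, 8 and 7, and Bik had 0 in both. Hrk-high cells held 5760917 UMIs in all and Hrk-negative cells 1888532, so these raw counts are not levels and favour the Hrk-high group. Bnip3l, Bnip3 and Bad were at 0.37, -0.24 and -0.39 in the depth window, none called.

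Among the anti-apoptotic members, 1 of 3 tested was higher and 0 were lower, with a median of -0.42. Bcl2 stood at 36.3, 27.2 and 20.5 CPM in Hrk-high against 19.1, 14.0 and 7.05 in Hrk-negative cells (1.05, adjusted p 0.011), and it was not called without injured 1 (1.16) or injured 3 (0.93), and was at 0.09 and not called with cells of 8000 to 20000 UMIs. Bcl2l1, which encodes Bcl-xL, the anti-apoptotic protein known to protect RGCs, had 30.5, 19.4 and 21.2 against 33.8, 34.3 and 44.0 (-0.67, adjusted p 0.054), below its uninjured range of 66.5 to 75.7 in both groups. It was called lower in 6 of 25 other settings, among them without injured 1 (-0.95) and without cells that hold markers of another class (-1.29). Mcl1 was at -0.42 (adjusted p 0.23) with the groups overlapping, and at 0.53 in the window of 8000 to 20000 UMIs. Apaf1, the core of the apoptosome, had 36.8, 35.7 and 39.5 against 27.9, 26.5 and 54.6 (adjusted p 0.92).

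**Figure D4:**
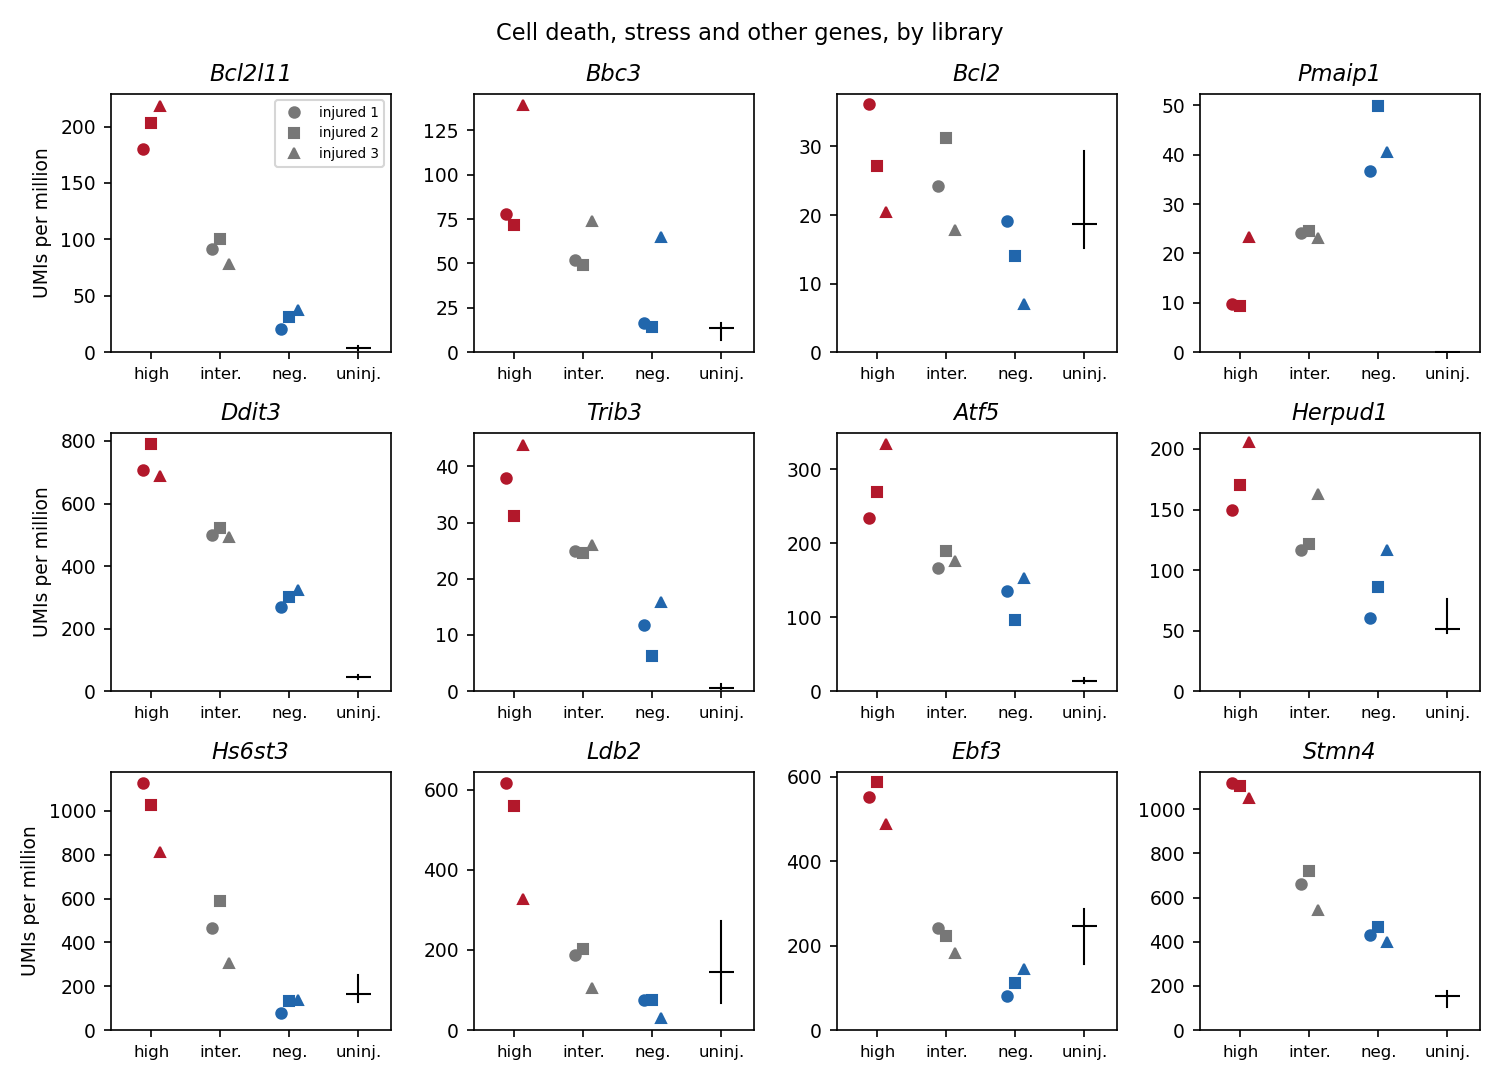
CPM (vertical axes) of 12 genes of cell death, stress and other roles in Hrk-high, Hrk-intermediate and Hrk-negative cells of injured 1, 2 and 3, with the median and range of the 6 uninjured libraries as a bar and a line. Bcl2l11 lies between 180.2 and 219 in Hrk-high sums and at 20.6 to 37.0 in Hrk-negative sums, and Pmaip1 is in the reverse order.

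Genes of the integrated stress response were higher more often than lower. This response slows translation through kinases of eIF2 alpha and raises Atf4, which drives amino acid transport, synthesis and the factor Ddit3. Of 26 tested members 13 were higher and 1 was lower, against backgrounds of 9.63% and 14.6%, with a median of 0.47 and -0.00 over all genes. Ddit3, which encodes CHOP, stood at 707, 789.6 and 687 CPM in Hrk-high and 269, 299.6 and 324 in Hrk-negative cells, against 40.5 to 50.4 in uninjured RGCs. Trib3, a pseudokinase target of CHOP, stood at 38.0, 31.1 and 43.8 against 11.8, 6.24 and 15.9. Slc3a2 and Slc7a5, the chains of an amino acid carrier, stood at 252, 268 and 385 against 141, 158 and 187 and at 78.9, 75.4 and 152 against 45.6, 35.9 and 79.3. Ddit3, Trib3 and Slc3a2 did not overlap between the groups, while Slc7a5 did. Their log2 fold changes were 1.28 (adjusted p 3.0e-12), 1.73 (3.0e-06), 0.87 (5.6e-06) and 0.92 (8.2e-05), with SEs of 0.17, 0.33, 0.17 and 0.20. Chac1, which degrades glutathione, followed at 0.75. Ddit3, Trib3, Slc3a2, Slc7a5 and Chac1 were at 0.85, 1.15, 0.61, 0.67 and 0.57 in the depth window, none called.

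Atf4 itself was not called, at 301, 284 and 385 against 228, 211 and 291 CPM (0.40, adjusted p 0.064), and its levels in both groups lay above the uninjured highest of 96.7. Gdf15, a secreted stress hormone, at 1.64, was not called without injured 2 (1.43) or 3 (1.05) and was at 2.94 without injured 1. Slc7a11, the cystine carrier, at 1.34, was not called without injured 1 (1.07) or in the window of 8000 to 20000 UMIs (0.51). The remaining 6 ranged from Nars, an enzyme that charges transfer RNA, at 0.42 to Ddit4, an inhibitor of mTOR signalling, at 0.91, and each lost its call without at least 1 library. Nars was at 0.29 and 0.55 without injured 1 and 3, and Ddit4 at 0.95, 0.95 and 0.85 without injured 1, 2 and 3, none of them called. The lower member was Eif2ak2, the kinase among the interferon-induced genes above. The counts of this list changed with the choice of cells. With cells of 8000 to 20000 UMIs 0 of 24 tested members were called, with a median of 0.46. Over all genes 97 of 8070 were higher there and 260 lower. Without cells that hold markers of another class 4 members were higher, against 332 of 7750 genes. DESeq2 called 4 higher and 1 lower. Nars and Ddit4 were at 0.43 and 0.61 in the depth window, neither called, and Gdf15 was too sparse for a test there.

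The unfolded protein response, the response of the endoplasmic reticulum to misfolded proteins, had 4 higher and 3 lower of 14 tested, against 9.63% and 14.6% of all genes, with a median of -0.10. Herpud1, a part of the degradation machinery, stood at 149.7, 170.2 and 206 against 60.3, 85.8 and 116 (1.01, adjusted p 4.5e-07). The sensor Atf6 was at 0.74 and lost its call without injured 2 (0.43), and the chaperone Hspa5 was at 0.62 and lost it without injured 1 (0.55) or 3 (0.54). The chaperone Calr was lower, at -0.72, and was at 0.05 with cells of 8000 to 20000 UMIs. Of 15 tested p53 targets and Gadd45 genes, 1 was higher and 1 lower, with a median of -0.03. Gadd45g, a stress-induced gene, fell from 331, 417 and 296 in Hrk-negative to 167, 101 and 121 in Hrk-high cells (-1.44, adjusted p 7.3e-16), without overlap, but was at -0.59 and not called in that window. Mdm2, the ligase that degrades p53, was at 0.72 and lost its call without injured 2 (0.56). Cdkn1a, the p53 target p21, had 223, 223 and 225 against 148, 220.0 and 192 and was not called. Herpud1, Atf6, Hspa5 and Mdm2 were at 0.79, 0.43, 0.65 and 0.69 in the depth window, none called.

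Of the partners of Atf3 among AP-1, ATF and C/EBP factors, 3 of 12 tested were higher, Cebpb among them, and 4 were lower, with a median of 0.02. Atf5, a factor of the stress response, stood at 234, 269 and 334 against 135, 96.7 and 153 CPM (1.10, adjusted p 6.2e-09) and Cebpg, a dimer partner of Atf4, at 136, 152 and 122 against 91.2, 43.7 and 79.3 (0.93, adjusted p 1.1e-05). Neither overlapped between the groups. Jun, the AP-1 factor that JNK activates in injured RGCs, had 473, 482 and 466 against 526, 582 and 437 and was not called (-0.13, adjusted p 0.64), and its values overlapped, above an uninjured highest of 90.8. Cebpd was at -1.91 and Fosl2 at -1.38, neither called without injured 1 (-1.62 and -0.90) or 2 (-1.60 and -1.24), with -2.85 and -1.96 without injured 3. Junb, at -0.85, was not called without injured 1 (-0.61) or 2 (-0.74). Atf5, Cebpg, Cebpb and Junb were at 0.70, 0.57, 0.97 and -0.33 in the depth window, none called. Cebpd and Fosl2 were too sparse for a test there.

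Among immediate early genes, the first genes to answer a stimulus, 2 of 7 tested were higher and 3 lower, with a median of -0.01. Each lost its call without at least 1 library. Ier2 was at 0.96, with 0.73 without injured 1 and 0.79 without injured 3. Egr1 was at 0.51 and at 0.39 and 0.62, respectively, and at -0.12 with cells of 8000 to 20000 UMIs. Fos was at -1.07, with -0.77, -1.40 and -1.12 without injured 1, 2 and 3. Junb, at -0.85, had -0.61 and -0.74 without injured 1 and 2. Ier2 was at 0.48 in the depth window and not called, and Fos was too sparse for a test there.

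The DLK, LZK and JNK pathway, the kinase route from the cut axon to Jun, had 2 higher and 4 lower of 18 tested members, against 9.63% and 14.6% of all genes, with a median of 0.13. Mef2a, a transcription factor downstream of kinases, stood at 397, 412 and 457 against 184, 175 and 255 (1.04, adjusted p 2.0e-08), and Dusp8, a phosphatase that acts on JNK, at 124, 107 and 138 against 63.2, 64.0 and 67.0 (0.91, adjusted p 2.8e-05). Mapk10, the neuronal kinase JNK3, went the other way, at 134, 138 and 106 against 275, 211 and 236 (-0.95, adjusted p 2.0e-07). The scaffold Sh3rf1 stood at 48.3, 51.3 and 51.2 against 189.7, 103 and 125 (-1.46, adjusted p 2.3e-13). The scaffolds Mapk8ip2 and Mapk8ip3 were at -0.82 and -0.64 and lost their calls without injured 1 (-0.62 and -0.55). Mef2a, Dusp8, Mapk10 and Sh3rf1 did not overlap between the groups. Mef2a, Dusp8, Sh3rf1, Mapk8ip2 and Mapk8ip3 were at 0.70, 0.48, -0.83, -0.79 and -0.39 in the depth window, none called.

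Heat shock proteins had 3 higher and 2 lower of 12 tested, against 9.63% and 14.6% of all genes, with a median of -0.10. Hspb1, a small heat shock protein induced by axon injury, stood at 203, 253 and 271 against 55.9, 140.4 and 132 (1.19, adjusted p 6.3e-10), and was at 0.51 and not called with cells of 8000 to 20000 UMIs. Its relative Cryab stood at 74.2, 73.8 and 133 against 23.5, 48.4 and 7.05 (1.77, adjusted p 0.0034), with a range of 1.07 to 2.66 when a library was left out, and DESeq2 did not call it. Hspb8 and Bag3, partners in the removal of misfolded proteins, were lower, at 3.45, 7.77 and 3.65 against 33.8, 42.1 and 63.4 (-3.33) and at 2.30, 6.22 and 6.21 against 11.8, 26.5 and 21.1 (-1.99). Hspa4l was at 0.59 and lost its call without injured 1 (0.45). Hspa4l was at 0.31 in the depth window and not called, and Hspb8 and Bag3 were too sparse for a test there.

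The list of axon growth and injury response genes held members that moved far in both directions. Of 27 tested, 7 were higher and 8 lower, against 9.63% and 14.6%, with a median of -0.08. Gal, which encodes the neuropeptide galanin, stood at 30.5, 30.3 and 30.3 CPM in Hrk-high and 735, 1645 and 440.5 in Hrk-negative cells, with 13.5 to 44.7 in uninjured RGCs. Hrk-high cells were thus inside the uninjured range and Hrk-negative cells above it. Socs3, the feedback inhibitor of cytokine signalling, stood at 0.576, 0.777 and 2.56 against 24.99, 35.9 and 24.7, Stat3, the factor it restrains, at 36.3, 49.7 and 54.4 against 160.3, 147 and 129, and Lifr, a receptor chain of that pathway, at 53.5, 42.7 and 72.3 against 206, 82.7 and 206. Each of the 4 was higher in Hrk-negative cells of every library. The log2 fold changes were -4.71 (SE 0.21, adjusted p 6.0e-85) for Gal, -4.15 (SE 0.50, adjusted p 7.5e-15) for Socs3, -1.65 (SE 0.19, adjusted p 7.2e-17) for Stat3 and -1.53 (SE 0.18, adjusted p 2.6e-15) for Lifr. Without injured 3 Socs3 was at -5.27. Gal was not called without cells that hold markers of another class, at -3.67. Gal was called at -2.23 in the depth window, and Socs3 was too sparse for a test there.

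Rgs4, which damps G protein signalling, stood at 25.3, 28.0 and 21.6 against 178, 158 and 68.7 (-2.37, adjusted p 2.7e-28). Npy, the neuropeptide Y gene, rested mostly on injured 3, at 14.96, 6.22 and 21.2 against 52.9, 4.68 and 181 (-2.36, adjusted p 1.5e-16), with -1.36 without injured 3. Flrt3, an adhesion protein, and Klf7, a growth-promoting factor, were at -0.79 and -0.48. Flrt3 was not called without injured 1 (-0.69), and Klf7 was not called without injured 1, 2 or 3 (-0.54, -0.38 and -0.49). Sprr1a, a growth-associated gene of injured neurons, was lower in each library, at 173, 87.8 and 158 against 1436, 2612 and 803, but was not called (-3.38, SE 0.81, adjusted p 0.14). It was called lower in 13 of 25 other settings, among them without injured 1 (-3.58), 2 (-2.68) or 3 (-3.93) and in the window of 8000 to 20000 UMIs (-1.47). After thinning it was found in 17.5% of Hrk-high and 59.5% of Hrk-negative cells, and in 23.3% and 63.1% of whole cells. Flrt3 and Klf7 were at -0.97 and -0.51 in the depth window, neither called, and Npy was too sparse for a test there.

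On the other side, Stmn4, a tubulin-binding protein, stood at 1120.1, 1105 and 1050.1 in Hrk-high against 429, 468 and 400.0 in Hrk-negative cells, without overlap (1.32, adjusted p 3.7e-13). Tnfrsf12a, a receptor that promotes neurite growth, stood at 479, 588 and 682 against 301, 359 and 374 (0.74, adjusted p 1.3e-04), far above at most 5.89 in uninjured RGCs in both groups. Sox11, a developmental factor that returns after injury, was at 0.63 and lost its call without injured 1 (0.68). Nrn1 at 0.83, Klf6 at 0.54 and the protease Ecel1 at 0.44 lost theirs without injured 1 too (0.65, 0.48 and 0.35), and Klf6 and Ecel1 also without injured 3 (0.48 and 0.48). Gap43, the growth cone protein, was high in both groups, at 2626, 2495 and 2679 against 2557, 2881 and 2028, and was not called (0.06, adjusted p 0.84). Stmn4, Tnfrsf12a, Sox11, Nrn1, Klf6 and Ecel1 were at 0.77, 0.62, 0.53, 0.70, 0.74 and 0.25 in the depth window, none called.

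Of 10 tested trophic and cytokine receptors, 2 were higher and 3 lower, with a median of -0.07. Cntfr, the receptor chain that binds ciliary neurotrophic factor, stood at 56.4, 59.1 and 65.8 against 22.1, 34.3 and 33.5 (1.01, adjusted p 2.9e-04), opposite to its signalling partner Lifr. Ntrk2, the receptor of brain-derived neurotrophic factor, was lower at 99.0, 97.9 and 77.1 against 201, 203 and 115 (-0.91, adjusted p 2.3e-06), and Ret, the signalling receptor of the GDNF family, at 88.1, 80.8 and 91.7 against 175, 167 and 107 (-0.78, adjusted p 1.1e-04). Fgfr1 was at 0.85 and lost its call without injured 2 (0.62). Cntfr, Ret and Fgfr1 were at 0.86, -0.57 and 0.39 in the depth window, none called.

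RGC identity genes differed between the groups, with 3 higher and 6 lower of 16 tested, against 9.63% and 14.6% of all genes, and a median of -0.29. Ebf3, a transcription factor of RGC subsets, stood at 553, 587 and 489 in Hrk-high and 80.9, 112 and 144 in Hrk-negative cells, on opposite sides of the uninjured range of 156 to 287. Isl1, an RGC factor also on the bipolar list, stood at 16.1, 11.7 and 25.2 against 80.9, 92.1 and 115, with 62.7 to 149.9 in uninjured RGCs. The groups did not overlap for either gene, and the log2 fold changes were 2.28 (SE 0.18, adjusted p 4.9e-33) and -2.43 (SE 0.23, adjusted p 1.1e-24). Ebf2, a relative of Ebf3, was too sparse to be tested, with 59 UMIs in Hrk-high and 2 in Hrk-negative cells, out of 5760917 and 1888532. Sncg, gamma-synuclein, stood at 448, 516 and 681 against 1275, 1587 and 2119.7 (-1.60, adjusted p 2.2e-19), and Slc17a6 at 341, 414 and 324 against 629, 698 and 559 (-0.82, adjusted p 9.8e-06). In the depth window Sncg was at -0.65, Slc17a6 at -0.56, Thy1 at -0.21 and Ebf1 at -0.66, none called, and Ebf3 and Irx3 were called at 1.53 and 4.08. Rbpms was not called, at 304, 319 and 310.2 against 269, 170.1 and 273 (0.40, adjusted p 0.068). Thy1, at -0.73, lost its call without injured 1 (-0.62), Ebf1, at -0.43, without injured 1 (-0.33) or 3 (-0.37), and Irx3, at 1.46, without injured 3 (1.10).

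Markers of RGC subtypes were tested in small numbers, since most are too sparse. Of 4 tested melanopsin and Eomes markers, 1 was higher and 3 lower, with a median of -1.63, which is the same with Opn4 at the low end of its interval. Opn4, melanopsin itself, had 2 UMIs in Hrk-high and 46 in Hrk-negative cells, a ratio of 70.2 (95% exact interval 18.4 to 597). Adcyap1, the neuropeptide PACAP of these cells, stood at 36.8, 38.1 and 61.0 against 107, 190.4 and 118 (-1.59, adjusted p 3.6e-15), and Igf1 at 14.4, 23.3 and 24.1 against 60.3, 74.9 and 61.7 (-1.68, adjusted p 1.0e-10). The untested factor Eomes had 6 UMIs against 39. Tbx20, Nmb, Rasgrp1 and Trpc7, also untested, had 27, 6, 2 and 12 against 18, 1, 11 and 30. Plcb4, an enzyme of the melanopsin cascade, was at 0.49 and lost its call without injured 1 (0.40) or 2 (0.38). Plcb4 was at 0.21 in the depth window and not called.

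For alpha RGCs 0 of 2 tested markers were higher and 1 was lower, with a median of -0.90: the neurofilament Nefh stood at 32.8, 25.6 and 27.0 against 88.2, 142 and 196 (-2.30, adjusted p 5.2e-28). Spp1, osteopontin, a marker of alpha RGCs and of survival, was kept out of the test by low sums and is named here after its values were seen. It had 0 UMIs in the Hrk-high cells of each library and 9, 5 and 171 in the Hrk-negative cells, at least 188-fold higher over the group against a floor of 3 UMIs in the Hrk-high cells. Its Hrk-negative UMIs came mostly from injured 3, and without that library the same bound was 10.7-fold. The Hrk-intermediate cells held 345, 140 and 1270 UMIs. In CPM that was 114, 59.1 and 287, against 13.2, 7.80 and 301 in Hrk-negative cells. In injured 1 and 2 Spp1 was thus higher in Hrk-intermediate than in Hrk-negative cells. Il1rapl2, the other tested alpha marker, was at 0.50 and not called. The untested Kcng4, Kit, Fes and Tpbg had 2, 7, 5 and 31 UMIs in Hrk-high and 0, 10, 8 and 15 in Hrk-negative cells. Nefh was called at -1.42 in the depth window.

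Of 4 tested Foxp2 RGC markers 1 was higher and 0 were lower, with a median of 0.14: Anxa3 stood at 174, 177 and 198 against 67.6, 49.9 and 54.6 (1.65, adjusted p 4.5e-16), above at most 12.6 in uninjured RGCs. Foxp2 itself was at 25.3, 18.7 and 18.3 against 27.9, 21.8 and 22.9 and not called. The untested Foxp2 markers Irx4 and Coch had 8 and 18 UMIs in Hrk-high and 1 and 51 in Hrk-negative cells, out of 5760917 and 1888532. Coch thus went opposite to Anxa3. Of 2 tested direction-selective markers 1 was higher and 0 were lower (median 0.19). That marker, the calcium-binding protein Calb2, stood at 505, 643 and 581 against 194, 365 and 208 (1.20, adjusted p 8.1e-11), both far below the uninjured range of 3353 to 7571. Among the Neurod2, Tfap2d and Zic1 markers, the factor Tfap2d stood at 3.45, 2.33 and 5.85 against 23.5, 26.5 and 47.6 (-3.02, adjusted p 1.0e-12). Satb1, at 0.79, lost its call without injured 1 (0.62) or 2 (0.50) and was at 1.43 without injured 3, and Tagln2, at -0.66, lost it without injured 2 (-0.19). In the window of 8000 to 20000 UMIs they were at 0.20 and 0.04, neither called. The 1 tested Tbr1 marker, Spon1, was lower at -0.71 and lost its call without injured 1 (-0.73) or 2 (-0.48). Its sign turned without cells that hold markers of another class (0.10) and without cells that hold a Xist UMI (0.14), neither called. Calb2 and Spon1 were at 0.84 and -0.81 in the depth window, neither called.

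Of 12 tested genes linked to RGC survival, 1 was higher and 4 lower, with a median of -0.53. Chl1, an adhesion protein of neurons, stood at 3.45, 9.33 and 13.2 in Hrk-high and 372, 218 and 155 in Hrk-negative cells, with 34.2 to 70.2 in uninjured RGCs, so that the groups lay on opposite sides of the uninjured range. Its log2 fold change was -4.67 (SE 0.29, adjusted p 3.8e-16), with -3.95 and -5.59 without injured 1 and 3, and it was not called without injured 2 (-4.68). Ucn, the peptide urocortin, stood at 2.30, 5.44 and 26.7 against 23.5, 24.97 and 152 (-2.55, adjusted p 1.9e-16), with 0 in uninjured RGCs, and the secreted protein Ndnf at 2.30, 5.44 and 7.31 against 14.7, 26.5 and 24.7 (-2.11, adjusted p 1.3e-05). The remaining lower gene was Igf1, given above. Tac1, which encodes substance P, was higher at 0.60 and lost its call without injured 1 (0.57) or 3 (0.37). Of 4 tested genes of NAD metabolism, a cofactor whose loss drives axon degeneration, 0 were higher and 1 was lower (median -0.45). Nampt, which makes the NAD precursor, was at -0.59 and lost its call without injured 1 (-0.37) or 2 (-0.55), and Sarm1 and Nmnat2 were not called. Tac1 and Nampt were at 0.79 and -0.46 in the depth window, neither called, and Chl1 and Ndnf were called at -3.99 and -2.75.

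Genes of the cytoskeleton and of transmitter release were mostly lower, and several channels of excitability were lower too. Of 15 tested neurofilaments and tubulins 0 were higher and 11 lower, against 14.6% of all genes, with a median of -0.70. Tubb3, the neuronal beta-tubulin used as an RGC marker, stood at 509, 539 and 1156 CPM in Hrk-high and 1448, 1972 and 2208 in Hrk-negative cells (-1.45, adjusted p 1.1e-15). Tubb4b stood at 76.0, 80.0 and 95.0 against 153, 318 and 215 (-1.41, adjusted p 1.3e-14). Neither overlapped between the groups, and Tubb3 was highest in injured 3 within each group. The window of 8000 to 20000 UMIs, which changes depth and leaves 42 Hrk-negative cells, gave 1 lower of 14 tested, with a median of 0.13. Of the 14, 8 were above 0, against 0 of 15 with all cells. Over all genes that window gave 260 lower of 8070. With that window Tubb3 was at -0.43 and Tubb4b at -0.71, neither called, while Nefh, given above, was called at -1.42.

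Of 19 tested genes of excitability channels 2 were higher and 9 lower, against 9.63% and 14.6% of all genes, with a median of -0.53. Kcnab1 and Kcnab2, the auxiliary chains of potassium channels, stood at 119.7, 66.8 and 37.3 against 348, 253 and 204 (-1.95) and at 20.7, 15.5 and 21.2 against 76.5, 71.8 and 95.1 (-2.08). Kcnq3, a channel of the M current, was higher, at 278, 266 and 178 against 132, 99.9 and 84.6 (1.17, adjusted p 1.3e-09), as was Kcnd2, of the A current, at 729, 831 and 523 against 387, 410.4 and 363 (0.81, adjusted p 2.2e-05). With cells of 8000 to 20000 UMIs 6 of 18 were lower and 0 higher, against 260 lower and 97 higher of 8070 genes. Kcnq3 and Kcnd2 were at 0.63 and 0.31 in the depth window, neither called.

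Of 15 tested genes of synaptic vesicle release 0 were higher and 10 lower, against 14.6% of all genes, with a median of -1.10. Cplx1, a complexin that clamps vesicle fusion, stood at 31.1, 20.2 and 34.3 against 89.7, 103 and 176 (-2.09, adjusted p 1.3e-22). Syp, a protein of the vesicle membrane, stood at 136, 106 and 111 against 303, 312 and 236 (-1.27, adjusted p 1.2e-12). Every Hrk-negative sum of these 2 genes lay above every Hrk-high sum. Syt1, the calcium sensor, was not called, at 2139, 1994 and 1775 against 2419, 1821 and 1554. With cells of 8000 to 20000 UMIs 6 of 13 were lower, with a median of -0.53, against 260 lower of 8070 genes.

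Genes of energy metabolism were mostly lower in Hrk-high cells. Of 18 tested glycolytic enzymes and glucose carriers 0 were higher and 13 lower, against 14.6% of all genes, with a median of -0.68. Pkm, pyruvate kinase, stood at 284, 259 and 295 in Hrk-high and 534, 824 and 678 in Hrk-negative cells, both under the uninjured lowest of 1284 (-1.27, adjusted p 1.1e-12). Aldoc, an aldolase, stood at 22.4, 6.99 and 8.77 against 66.2, 42.1 and 96.9 (-2.49, adjusted p 5.1e-19), with a range of -3.15 to -1.89 when a library was left out. Gapdh stood at 1011, 1044 and 852 against 1366, 2077 and 1321 (-0.70, adjusted p 2.7e-04). Hk1 and Eno1 were not called. Of 13 mitochondrially encoded genes 0 were higher and 10 lower, with a median of -0.64. mt-Co1, a subunit of cytochrome oxidase, stood at 3490.3, 3463 and 1992 against 7713, 7485 and 4268 (-1.13, adjusted p 9.1e-10), with injured 3 lowest in both groups. With cells of 8000 to 20000 UMIs 2 of the 18 and 2 of the 13 were lower, with medians of -0.52 and -0.68. Without cells that hold mCherry 2 and 0 were lower. Over all genes 260 of 8070 were lower with cells of 8000 to 20000 UMIs and 452 of 7806 without mCherry cells. Pkm and Gapdh were at -0.78 and -0.32 in the depth window, neither called.

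Of 81 tested cytosolic ribosomal protein genes 12 were higher and 0 lower, against 9.63% higher over all genes, with a median of 0.25. The highest rise was that of Rpl5, at 709, 793 and 1195 against 398, 513 and 657 (0.76, adjusted p 7.2e-05). The count moved with the libraries, to 1 without injured 1, 38 without injured 2 and 2 without injured 3. Over all genes 475 of 9516, 613 of 10158 and 750 of 9546 were higher in these settings. Many ribosomal protein genes have near-identical copies, so their counts are uncertain to that extent. Of 19 tested V-ATPase subunits 0 were higher and 4 lower, against 14.6% lower over all genes (median -0.34). Atp6v1g2, the neuronal G subunit, stood at 48.3, 53.6 and 34.7 against 103, 172 and 119.8 (-1.53, adjusted p 3.5e-14). Atp6v0c, the subunit the study worked with, was at 1088, 1181 and 1175 against 1304, 1782 and 1480.1 and not called (-0.41, adjusted p 0.054), with an uninjured range of 1643 to 2580.5. Atp6v0e2 was at -0.68. Atp6ap1, at -0.59, lost its call without injured 2 (-0.47), and Atp6v1e1, at -0.51, without injured 1 (-0.56) or 3 (-0.46). Atp6v0e2, Atp6ap1 and Atp6v1e1 were at -0.16, -0.19 and -0.19 in the depth window, none called.

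Of 7 tested nuclear long noncoding RNAs 2 were higher and 3 lower, with a median of -0.05. Malat1 stood at 93984, 86817 and 104602 CPM in Hrk-high and 39553, 25697 and 55994 in Hrk-negative cells (1.29, SE 0.18, adjusted p 4.4e-11), without overlap. The scaling factors of the 6 sums, which correct for such abundant transcripts, ranged from 0.964 to 1.03. Meg3, at -0.62, Rian, at -0.56, and Mirg, at -0.80, RNAs of 1 imprinted locus, were lower and lost their calls without injured 1 (-0.61, -0.54 and -0.66) or 3 (-0.49, -0.30 and -0.66). Kcnq1ot1, at 0.48, lost its call without injured 1 (0.56) or 2 (0.32). Malat1, Meg3, Rian, Mirg and Kcnq1ot1 were at 0.89, -0.66, -0.48, -0.83 and -0.01 in the depth window, none called.

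Markers of other retinal classes were summed for each group. The Müller glia and astrocyte list summed to 145, 148 and 162 CPM in Hrk-high and to 809, 860 and 581 in Hrk-negative cells of injured 1, 2 and 3. Of its 5 tested genes 0 were higher and 3 lower (Clu, Glul and Dkk3), with a median of -1.08. Its most abundant gene was Clu, clusterin, a secreted chaperone that RGCs also express, at 79.4, 70.7 and 77.1 against 582, 648 and 395 (-2.81, adjusted p 7.4e-54) and 70.9 to 122 in uninjured RGCs. Glul, glutamine synthetase, stood at 33.4, 35.7 and 52.6 against 171, 164 and 141 (-1.97, adjusted p 1.1e-23), and was at -0.62 and not called with cells of 8000 to 20000 UMIs. The untested members Aqp4, Gfap, Aldh1l1, Apoe, Slc1a3 and Pax2 had 1, 2, 1, 8, 5 and 11 UMIs in all Hrk-high and 0, 0, 0, 3, 3 and 4 in all Hrk-negative cells. Those are raw counts, out of 5760917 UMIs in Hrk-high and 1888532 in Hrk-negative cells, and not levels. Rlbp1 was not called, at 8.63, 14.8 and 10.2 CPM against 1.47, 7.80 and 17.6. Dkk3, at -1.08, lost its call without injured 2 (-1.21) or 3 (-1.07). Clu was called at -1.64 in the depth window, and Dkk3 was too sparse for a test there.

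The amacrine list summed to 346, 199 and 133 CPM in Hrk-high and to 450, 312 and 120 in Hrk-negative cells, with Pax6, which RGCs also express, as its most abundant gene and Chat at 0 in both. Of its 8 tested genes 0 were higher and 1 was lower, with a median of -0.61: Gad2, which makes GABA, at 28.8, 17.9 and 5.12 against 61.8, 43.7 and 10.6 (-1.17, adjusted p 6.6e-04). Rod and cone markers reached 42.0 and 51.5 CPM in Hrk-high and Hrk-negative cells of injured 2, led by Sag, and at most 1.76 in injured 1 and 3. Microglia and macrophage markers summed to 24.2, 40.4 and 12.4 in Hrk-high and to 4.41, 17.2 and 17.6 in Hrk-negative cells, with C1qa, C1qb, C1qc, Tyrobp and Lyz2 at 0 in all of them. Endothelial and pericyte markers reached at most 6.99, and none of these last 3 lists had a tested gene. Bipolar markers other than Isl1, with Prkca as the most abundant, summed to 163, 148 and 119 in Hrk-high and to 143, 122 and 88.1 in Hrk-negative cells, with Grm6 and Pcp2 at 0. Of 2 tested bipolar markers 0 were higher and 1, Isl1, was lower (median -1.06). The part of these transcripts in the results was not tested. Gad2 was called at -2.37 in the depth window.

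Among all genes with an average of at least 5 log2 CPM and 1 direction in all libraries, several of the largest rises have no place in the lists. Hs6st3, which adds sulfate to heparan sulfate chains, stood at 1127, 1028 and 814 CPM in Hrk-high and 79.4, 133 and 139 in Hrk-negative cells, with 127 to 252 in uninjured RGCs. Ldb2, a cofactor of LIM-homeodomain factors, stood at 616, 560.3 and 328 against 74.98, 76.5 and 30.0, and Xirp2, an actin-binding protein, at 104, 63.0 and 108 against 8.82, 6.24 and 14.1. The groups did not overlap for any of the 3, and the uninjured highest was 271 for Ldb2 and 1.46 for Xirp2. The log2 fold changes were 3.07 (SE 0.19, adjusted p 5.1e-55), 3.05 (SE 0.20, adjusted p 9.8e-51) and 3.23 (SE 0.29, adjusted p 2.6e-26). Cftr, a chloride channel, rose by 3.03 on that scale, the zinc finger gene Zfp804b by 2.80, Tacr1, the substance P receptor, by 2.70, Thrb, a thyroid hormone receptor, by 2.33 and Cntnap4, an adhesion protein of synapses, by 2.28. Rtl4 was at 2.49, with 3.09 without injured 1, and was not called with cells of 8000 to 20000 UMIs, at 1.29. Hs6st3, Ldb2, Xirp2, Cftr and Zfp804b were called at 2.39, 2.17, 1.88, 2.35 and 2.16 in the depth window.

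Large falls outside the lists, besides that of Rsad2, were those of Neto1, Glis3, AA467197, Ifi202b and Gm32647. Neto1, an auxiliary protein of glutamate receptors, stood at 36.8, 18.7 and 17.9 in Hrk-high and 826, 538 and 761 in Hrk-negative cells, against 1.42 to 5.93 in uninjured RGCs. Glis3, a zinc finger factor, stood at 7.48, 1.55 and 3.29 against 381, 131 and 159, and AA467197, a gene that hosts a microRNA, at 2.30, 1.55 and 2.92 against 125, 92.1 and 37.0. In uninjured libraries the highest values of the 3 genes were 5.93, 0.562 and 0.856, and the groups did not overlap for any of them. Their log2 fold changes were -4.92 (SE 0.20, adjusted p 6.8e-123), -5.71 (SE 0.26, adjusted p 1.4e-105) and -4.93 (SE 0.33, adjusted p 1.7e-46), the last with -5.73 without injured 3. The interferon-induced gene Ifi202b, one of a family of near-identical copies whose counts are uncertain, was at -4.88, with -6.08 without injured 1, and the unnamed transcript Gm32647 at -4.60. Neto1 was not called without cells that hold markers of another class (-4.99) or with cells of 8000 to 20000 UMIs (-4.20), with the same direction, and Ifi202b was not called without cells that hold such markers (-5.16). Glis3, AA467197 and Ifi202b were called at -4.60, -3.68 and -2.97 in the depth window.

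Several differences were graded over Hrk-intermediate cells. In 5 classes of cells by Hrk (0, under 1, 1 to under 3, 3 to under 6, and 6 or more per 10000), Bcl2l11 stood at 20.6, 30.8, 141, 167 and 242 CPM in injured 1, at 31.2, 43.8, 158, 187 and 240.2 in injured 2 and at 37.0, 39.7, 102, 184 and 279 in injured 3. It was higher at each step in all 3 libraries. B2m stood at 613, 317, 202, 46.7 and 13.3 in injured 1, at 598, 447, 127, 41.0 and 39.2 in injured 2 and at 583, 413, 239.9, 106 and 77.3 in injured 3, and was lower at each step. Hs6st3 went from 79.4 to 1197, from 133 to 1000.0 and from 139 to 954, with its highest value in injured 2 in the class of 3 to under 6. Bbc3, Ddit3, H2-K1, Gal and Sprr1a also broke the order in some library. Sprr1a, for example, stood at 803, 2027, 1069, 198 and 88.4 in injured 3. Jun had no order shared by the libraries, at 526, 518, 598, 469 and 491 in injured 1, at 582, 522, 493, 486 and 473 in injured 2, where it was lower at each step, and at 437, 447, 428, 461 and 475 in injured 3. Depth also differed between the classes, with medians of 22801, 23064, 16772, 13748 and 12647 UMIs in injured 1. The second class was the deepest in each library, and from there the median fell at each step in all 3 libraries. The part of depth in the gradation was not tested. These values are a description of cells from the same libraries. The classes are cut on Hrk, and all but the intermediate ones hold the cells compared above, so the gradation is no separate support.

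**Figure D5:**
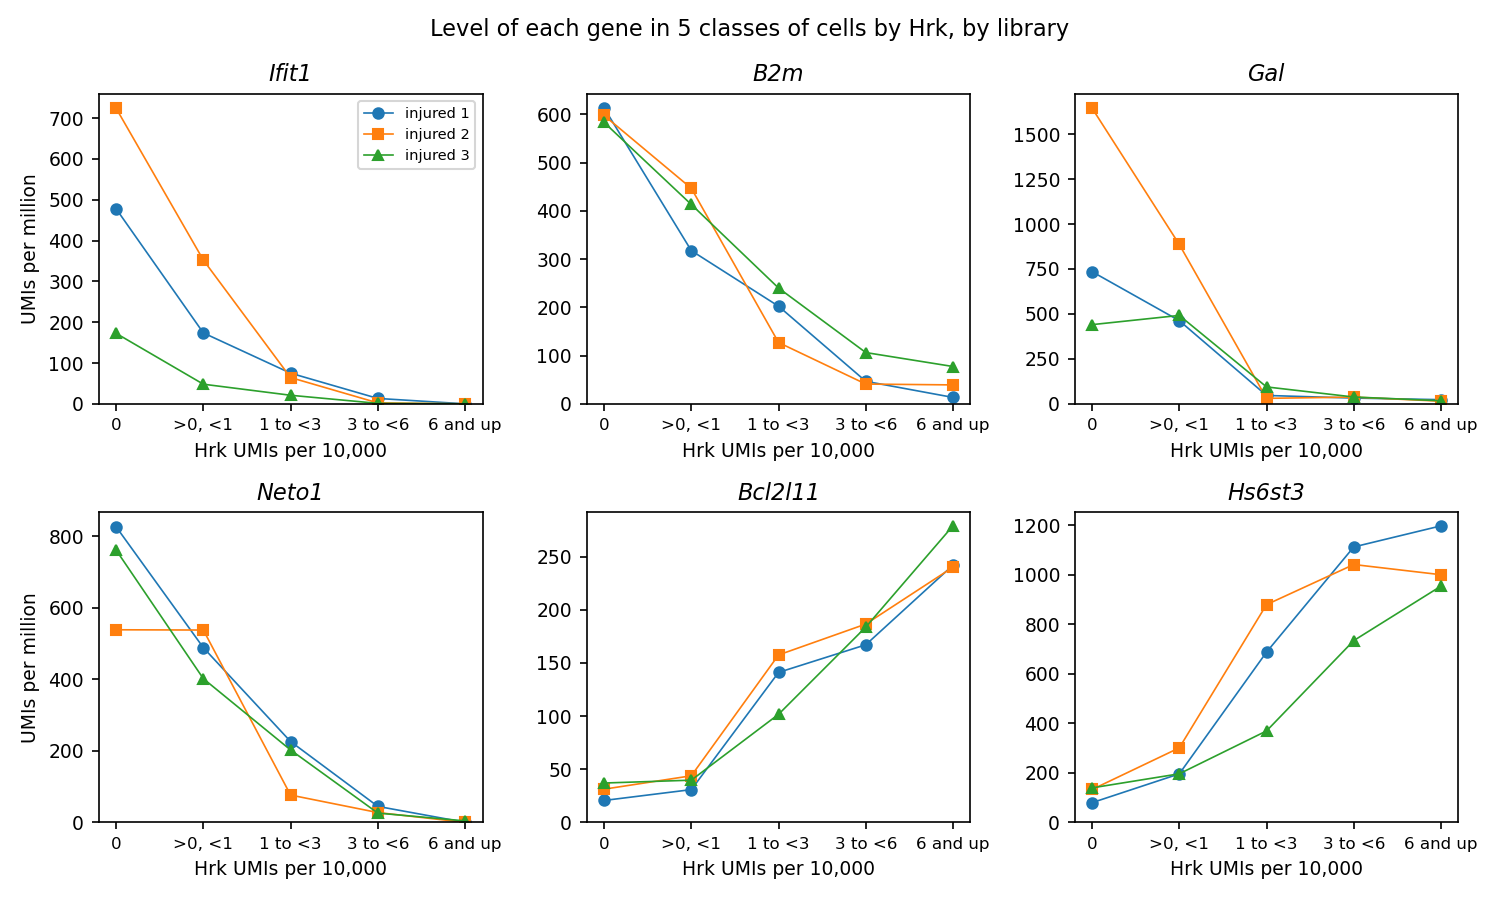
CPM (vertical axes) of 6 genes in 5 classes of cells by Hrk UMIs per 10000 (horizontal axis), with 1 line for each of injured 1, 2 and 3. Ifit1, B2m, Gal and Neto1 are highest in cells with little or no Hrk, and Bcl2l11 and Hs6st3 in cells with much of it.

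The Hrk-negative cells did not all carry the same transcripts. Of the 84, 35 held UMIs of both Neto1 and Ifit1, 16 of Neto1 alone, 1 of Ifit1 alone and 32 of neither. In the 382 Hrk-high cells the same counts were 5, 17, 1 and 359. Gal and Ifit1 were found together in 22 Hrk-negative and 3 Hrk-high cells. Cells with both Neto1 and Ifit1 occurred in each library, 10 in injured 1, 14 in injured 2 and 11 in injured 3. After thinning, Neto1 was found in 4.71% of Hrk-high, 30.5% of intermediate and 53.6% of Hrk-negative cells (5.76%, 36.7% and 60.7% of whole cells), and Gal in 12.6%, 29.9% and 40.5% (20.7%, 42.7% and 46.4%). Shares of cells from 1 library share their source, so they are given without a test.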

How the data were processed

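The files hold raw UMI counts per gene and cell for 10 libraries, which the authors made with Cell Ranger on mm39 and deposited without normalization. The labels name version 7.0.1 and the paper an older one. The authors selected cells by pan-RGC markers and by their own quality limits (a minimum of 500 genes, a maximum of 20% of UMIs from mitochondria and of 150000 UMIs in total). Applied here again, these quality limits leave 3292 of 3292 cells. The paper counts fewer injured RGCs than the 1609 in the files, and which of them it left out is not stated. Injured 4 shares 421 barcodes with injured 3 and was used only as an alternative. No doublet caller was run, and cells with at least 3 markers of another class were left out as an alternative.

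Tools were pandas 2.3.3, scipy 1.17.1 and numpy 2.4.6 under Python 3.11.15. Counts were summed by library and Hrk group to 6 sums of 567543 to 2736792 UMIs. In R 4.3.3, edgeR 4.0.16 was run with its default filter on low counts, TMM factors, a robust quasi-likelihood fit, the library as a block and Benjamini-Hochberg adjustment over 9451 genes at 0.05. Each gene had 2 residual degrees of freedom. The prior ones were infinite for 8058 genes, which share the spread of the trend at their level, and finite for 1393. SEs were derived from each F statistic and its fold change. Thinning drew 8000 UMIs per cell with seed 11. The procedure was tested on simulated data, where it recovered 42 of 100 genes changed 2-fold and 100 of 100 changed 4-fold, with 8 false calls, so that uncalled genes with small changes may differ. Measures of cell quality other than depth were compared with an exact sign-flip permutation test over libraries. Ratios with 1 to 3 UMIs have 95% exact intervals, which cover counting error only. Limits for a count of 0 were set at 3 UMIs.

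Genes were named by a rule: Hrk and Atf3 as a description, the 10 largest rises and 10 largest falls among called genes that had the same direction in all 3 libraries and a mean level of 5 or more in log2 CPM, called members of 36 gene lists, and up to 4 other members per list. Some genes that the rule names are not reported here. The cells, the Hrk limits and the lists were chosen with earlier results of these data known. Alternatives were DESeq2 1.42.0, limma 3.58.1 (voom), other scaling, other filters on counts and cells, other Hrk and depth limits, no block, and each library left out. Gene positions are from GENCODE M39 on mm39, and promoters from RefSeq on GRCm38.p6. Free RNA was not measured, since the files hold no empty droplets.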

Additional observations from a re-analysis of the deposited data

Results flagged for a closer look

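mCherry, the reporter of vectors used elsewhere in the study, is part of no comparison of the study on these cells and was detected in libraries whose labels name no vector. A UMI of it was present in 8.77% of Hrk-high cells of injured 1, in 17.6% of those of injured 2 and in 91.8% of those of injured 3, while the 6 uninjured libraries held 0 mCherry UMIs. In Hrk-negative cells the shares were 7.69%, 13.3% and 82.1%. Without cells that hold mCherry, 310 genes were higher and 452 lower. Atf3 stood out in 1 of the 6 uninjured libraries, where cells of at least 8000 UMIs had 2.64 CPM in uninjured 4 and at most 0.856 in the other libraries. Chance can also set apart 1 sample in this way, and all 6 values are far below the 591 to 1012 CPM of the injured sums.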

How the results depend on the processing

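With all cells, 910 genes were higher and 1382 lower in Hrk-high cells. Counts that moved by more than 1.5 times were 321 and 698 with DESeq2, 409 and 659 with cells thinned to 8000 UMIs, and 332 and 573 without cells with markers of another class. Settings added after the data had been seen gave 97 and 260 with cells of 8000 to 20000 UMIs, 310 and 452 without mCherry cells, and 196 and 342 without Xist cells. Without the library as a block, which ignores that both groups share a capture, 528 were higher, and with every cell given the same weight 562. With 1 library left out, the counts ranged from 475 to 750 higher and from 877 to 1087 lower, with the lowest in each direction without injured 1. The 14 other settings run stayed within 1.5 times in both directions, among them limma-voom with 837 and 1524 upper-quartile scaling with 1134 and 1207, and injured 1 and 2 summed with 678 and 1222, which was also added after the data had been seen. Without the filter on low counts the median of all genes was 0.11. Of 199 called genes named by the rule, 52 were called in every setting that gave a value. Over genes and settings, 3832 of 4789 values of called genes were past the threshold in the same direction and 944 had the same direction without passing it, of which DESeq2 had 67 and the window of 8000 to 20000 UMIs had 114. The 10 uncalled genes passed it in 35 values, of which Sprr1a had 13, Bcl2l1 and Atf4 6 each, Atp6v0c 4, Rbpms 3, mCherry 2 and Mcl1 1. The difference in median UMIs per cell was -6320, and with 1 library left out it kept its sign and moved by less than the SD over the libraries (2569).

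Of 5038 values of called and uncalled genes, 19 had the opposite sign on the log2 scale. In the window of 8000 to 20000 UMIs these were Mcl1 (0.53), Calr (0.0503), Tagln2 (0.0376), Nefl (0.0899), Tuba1a (0.33), Tubb2a (0.18), Tubb4a (0.17), Tubb6 (0.60), Egr1 (-0.12) and Kcnq1ot1 (-0.0114). Without cells with markers of another class they were Sdf2l1 (0.0442), Spon1 (0.10) and mt-Nd5 (0.0343), and without Xist cells Rbpms (-0.0425) and Spon1 (0.14). Bax was at -0.20 with groups set on thinned Hrk, and Jun at 0.0339 without the requirement for Atf3. With 1 library left out, Gap43 ranged from -0.0898 to 0.24 and mCherry from -0.29 to 0.97. The cause was not tested in any of these cases. With 84 Hrk-negative cells and deeper cells in that group, a gene with few UMIs that was not called may still differ. A count of 0 Hrk UMIs limits what was captured and not what a cell expresses: 12 Hrk-negative cells of injured 3 were intermediate in injured 4.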

Other observations

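Cells of the same injured libraries that the limits left out numbered 220, of which 121 held under 8000 UMIs and 99 were deeper but held 0 Atf3 UMIs. Atf3 was detected in 90.8%, 89.7% and 85.2% of all cells of injured 1, 2 and 3. In injured 4, the repeat of the injured 3 capture, Hrk stood at 284 CPM over all cells with a UMI in 86.8% of them, against 287 CPM and 89.9% in injured 3. The transcription factor Pou4f1 was not called and differed in direction between libraries, at 117, 116 and 112 CPM in Hrk-high and 168, 119 and 68.7 in Hrk-negative cells.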
